A study of Mus musculus with 12 samples.

Results

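The 9 liver genes described here differ in function: L3hypdh, Meg3, Cdc42ep5, Serpina11, Zap70, Sulf2, Csad, Asb13 and Nup93. They are 9 of the 16475 probe sets that are not array controls, and each matched 1 probe set. They were selected on their measured genotype difference: their levels on the 6 arrays of mice lacking Met in hepatocytes lay wholly above or wholly below those on the 6 control arrays. Rad51b and genes known for liver zonation or detoxification were kept out of the list, and Nup93 was added to it by name. Nup93 meets the same rule. The genotype difference of these genes is therefore given below as a description without a test.

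Livers of 12 mice were profiled, 1 array per mouse, in 4 groups of 3. The controls carried loxP-flanked Met (c-Met loxP/loxP) and the knockouts the same alleles with a Cre transgene. Cre was driven by the albumin promoter with the AFP enhancer (Alfp-Cre), active in the embryo, or by the albumin promoter alone (Alb-Cre), active after birth; the labels do not say which one each array represents, nor the strain, age or sex. Each genotype was sampled unstimulated and again, in other mice, 2 h after hepatocyte growth factor (HGF), the ligand of Met, was given as 2 µg of recombinant mouse protein into the peritoneum. Whether the unstimulated mice received saline is not clear from the labels, so an effect of HGF and one of the injection cannot be told apart. The arrays of the controls are numbered 1 to 6 and those of the knockouts 7 to 12, so genotype and array order cannot be told apart either. That the 3 mice of a group are separate animals is stated for the experiment as a whole and not for each array.

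Values are log2(intensity + 1), and the 6683 probe sets that reached 4 on 3 or more arrays were tested. All 9 genes passed. In 5 of them, L3hypdh, Serpina11, Zap70, Csad and Asb13, all 12 arrays were at or above 4. Meg3 passed through 4 knockout arrays alone and Nup93 through 4 control arrays alone, Cdc42ep5 was at or above 4 on 2 control and 6 knockout arrays, and Sulf2 on 3 and 6. For these 4 genes the lower group lies near the background of the array, where a difference is compressed. Hepatocyte markers were high on every array, with Alb at 14.43 to 14.54. Met itself did not separate the genotypes, at 6.59 to 7.02 in controls and 6.29 to 7.40 in knockouts; the place of its probes relative to the deleted part is not known here, so this checks nothing. On an axis over all tested probe sets from unstimulated controls (0) to HGF-treated controls (1), the unstimulated knockout replicates 1 to 3 stood at 0.12, 0.98 and 0.04 and the HGF-treated ones at 0.32, 0.02 and 0.94. The replicate 2 arrays of the knockouts thus ran opposite to their HGF labels on this axis. HGF-treated knockout replicate 3 stood near the HGF-treated controls. How far knockout livers should move with HGF is not known here. The values therefore do not show which knockout arrays are out of line. The averaged genotype differences and the HGF and interaction differences that moved most are also given without the replicate 2 arrays.

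The 9 genes belong to separate pathways. Meg3 is a long noncoding RNA of the imprinted Dlk1-Dio3 domain, expressed from the maternal chromosome. Zap70 encodes a Syk-family kinase that relays the T cell receptor signal, Cdc42ep5 a binding partner of the small GTPase CDC42 and of septins, and Sulf2 a secreted sulfatase that trims heparan sulfate, the matrix sugar to which HGF and other growth factors bind. Csad and L3hypdh encode metabolic enzymes, one making hypotaurine on the way to taurine, the conjugate partner of bile acids in mice, the other a dehydratase of a hydroxyproline. Serpina11 belongs to the clade A serpins, secreted by hepatocytes and mostly protease inhibitors. Asb13 encodes an ankyrin repeat protein with a SOCS box, a substrate receptor of ubiquitin ligases, and Nup93 a scaffold protein of the inner ring of the nuclear pore.

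RefSeq promoter windows (GRCm38.p6, from 250 bases before to 50 bases after each annotated start) were found for all 9 genes, 16 windows in all. Those of 3 genes are printed: those of Meg3 and Zap70 because the levels of both genes were higher in knockouts and they share a motif that few promoters hold, and that of L3hypdh as the gene with the widest gap among those lower in knockouts. The motifs and windows were picked after the values were known. Capitals mark TGACGTCA, the cAMP response element, in the windows of Meg3 and Zap70 and GGGCGG on either strand, the GC box, in that of L3hypdh.
Meg3 (chr12:109540746-109541045, plus strand): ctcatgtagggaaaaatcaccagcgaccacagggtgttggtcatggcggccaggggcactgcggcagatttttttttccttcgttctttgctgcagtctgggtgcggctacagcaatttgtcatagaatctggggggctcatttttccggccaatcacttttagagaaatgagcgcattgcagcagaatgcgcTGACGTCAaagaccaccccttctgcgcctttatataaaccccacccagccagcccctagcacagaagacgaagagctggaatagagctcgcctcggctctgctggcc
Zap70 (chr1:36761548-36761847, plus strand): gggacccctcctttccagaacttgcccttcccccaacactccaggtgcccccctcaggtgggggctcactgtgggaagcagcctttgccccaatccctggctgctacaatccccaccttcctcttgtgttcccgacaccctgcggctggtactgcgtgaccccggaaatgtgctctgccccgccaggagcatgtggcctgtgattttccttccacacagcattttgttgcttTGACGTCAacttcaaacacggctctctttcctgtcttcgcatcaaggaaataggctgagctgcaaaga
L3hypdh (chr12:72085264-72085563, minus strand): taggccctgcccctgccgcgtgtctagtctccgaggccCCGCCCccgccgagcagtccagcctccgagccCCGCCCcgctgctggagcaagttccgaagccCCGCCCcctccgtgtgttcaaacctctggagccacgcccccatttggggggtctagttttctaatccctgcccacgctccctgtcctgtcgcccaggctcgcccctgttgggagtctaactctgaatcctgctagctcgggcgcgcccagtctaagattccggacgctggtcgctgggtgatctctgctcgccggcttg
TGACGTCA reads the same on both strands. It starts 57 bases before the start of Meg3 and 18 bases before the first start of Zap70, and 1.79% of 32851 promoter windows hold it. No other window of the 9 genes does. GGGCGG or its reverse complement CCGCCC, held by 35.7% of all windows, occurs 3 times in the L3hypdh window and at least once in a window of 5 of the genes (L3hypdh, Sulf2, Csad, Asb13 and Nup93). CCAAT, in 37.4% of all windows, was found in 8 of the 16, TATAAA (13.6%) in 3 and CACGTG (7.15%) in 2. Each was searched on both strands, and these matches describe the sequence and say nothing about binding.

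Over all tested probe sets, 50 (0.748%) had knockout arrays wholly apart from the control arrays, 25 above (0.374%) and 25 below (0.374%), among them the 9 genes. Of the 9, 4 lay above (Meg3, Cdc42ep5, Zap70 and Sulf2) and 5 below (L3hypdh, Serpina11, Csad, Asb13 and Nup93). Nothing is read from these counts, since they follow from the choice. For the genotype difference averaged over both HGF states, limma called 1 of the 6683 tested probe sets (0.015%). At so low a share, 0 called in a family below says little about its genes. At the edge of the rule, Csad was the member closest to it, its lowest control array 0.01 above its highest knockout array. Just outside was Bst2, with a gap of -0.0003, an overlap.

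**Figure D1:**
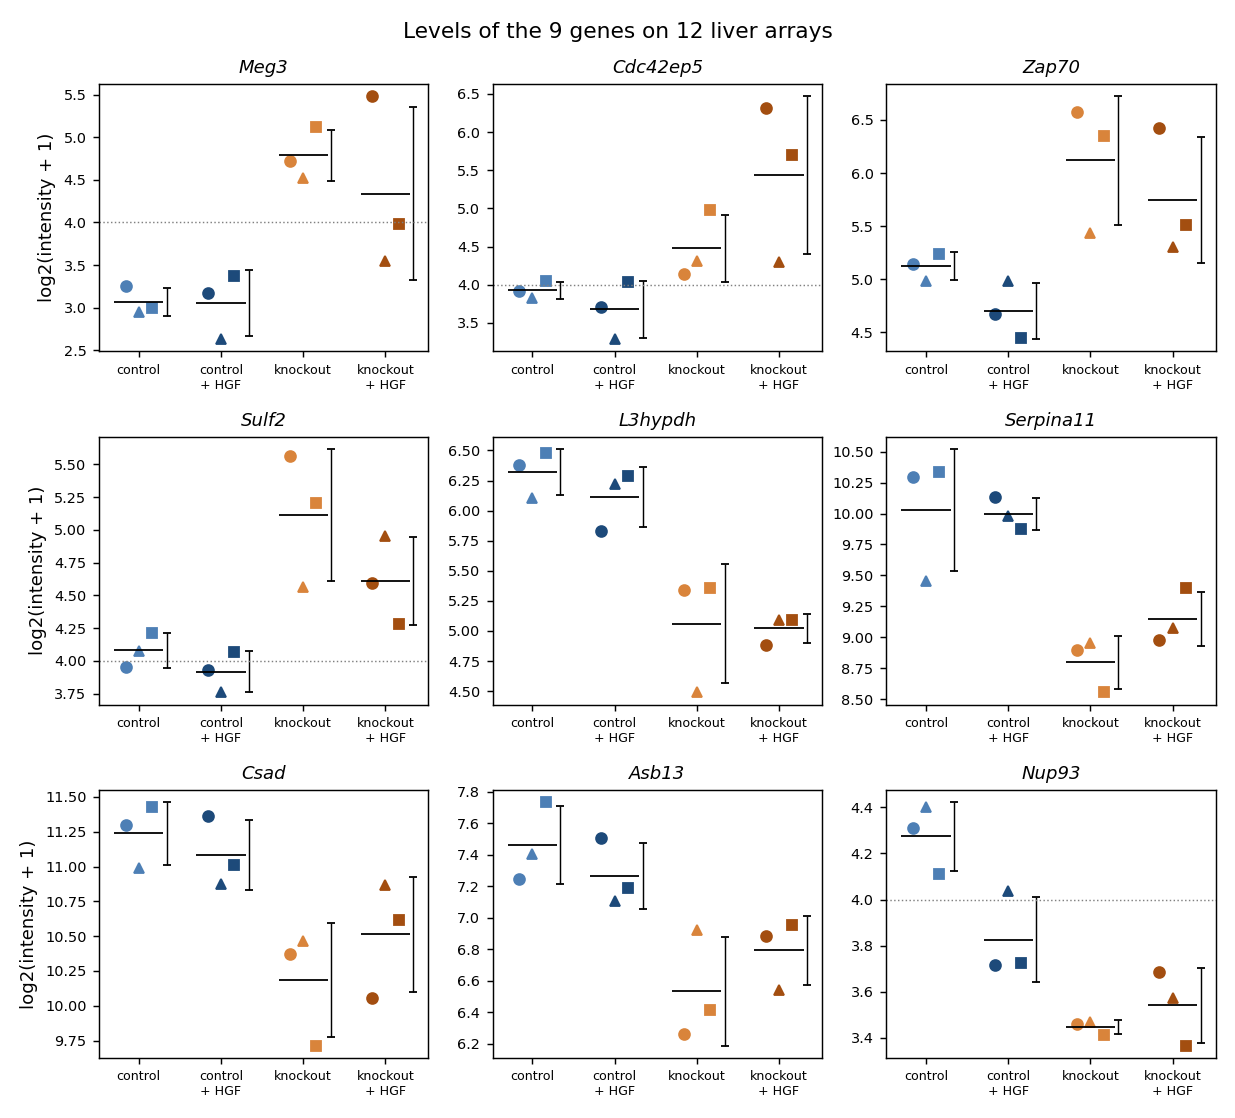
Level of each gene, log2(intensity + 1), on the 12 liver arrays, 3 per group; circles, triangles and squares are replicates 1, 2 and 3, lines are group means, bars beside them are 1 SD, and dotted lines mark the filter level of 4. In each panel all 6 knockout points lie on one side of all 6 control points, which is how the genes were chosen; the gap is 0.47 for L3hypdh and 0.01 for Csad.

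Among the genes that were higher in knockouts, Meg3 had the largest difference with a pseudocount of 1; with 16 it was 0.76, as was that of Zap70. Meg3 was at 3.26, 2.95 and 2.99 in unstimulated controls (replicates 1 to 3) and at 3.17, 2.63 and 3.37 in HGF-treated controls, all under the filter level. In knockouts it was at 4.72, 4.53 and 5.12 unstimulated and at 5.49, 3.55 and 3.98 after HGF. The control arrays lay close together, while the HGF-treated knockouts spread over the whole knockout range, with replicate 1 highest of all arrays and replicate 2 lowest of the knockouts. The knockout minus control difference, averaged over both HGF states, was 1.50 (SE 0.30), or 2.83-fold on this scale, rank 9 among the 6683 probe sets in the positive direction.

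Zap70 was at 5.14, 4.99 and 5.24 in unstimulated and 4.67, 4.98 and 4.45 in HGF-treated controls. In knockouts the unstimulated replicates 1 to 3 read 6.58, 5.43 and 6.35 and the HGF-treated ones 6.42, 5.30 and 5.51. Within the knockouts 3 arrays were clearly higher than the other 3, with both kinds in each HGF state, and the lowest knockout array lies 0.06 above the highest control array. The difference was 1.02 (SE 0.24, 2.03-fold), and 1.30 without the replicate 2 arrays of the knockouts.

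Other T cell genes were near background. Of the 9 T and NK cell markers on the array (Cd3e, Cd3g, Cd3d, Cd2, Cd8a, Nkg7, Klrd1, Gzma and Il2rb) none passed the filter, and they lay at 1.71 to 2.95 over all arrays. Their summed level was 5.05 to 5.17 on control arrays and 5.05 to 5.23 on knockout arrays. Of the 13 genes of T cell receptor signalling on the array, 2 were tested and 0 called by limma for genotype: Fyn, a Src-family kinase (0.12, SE 0.10), and Ptprc, the leukocyte phosphatase CD45 (-0.44, SE 0.26). Lat, Lcp2, Cd247 and the related kinase Syk were below the filter. In whole liver, a change in the number of cells of a type and one in RNA per cell cannot be told apart.

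**Figure D2:**
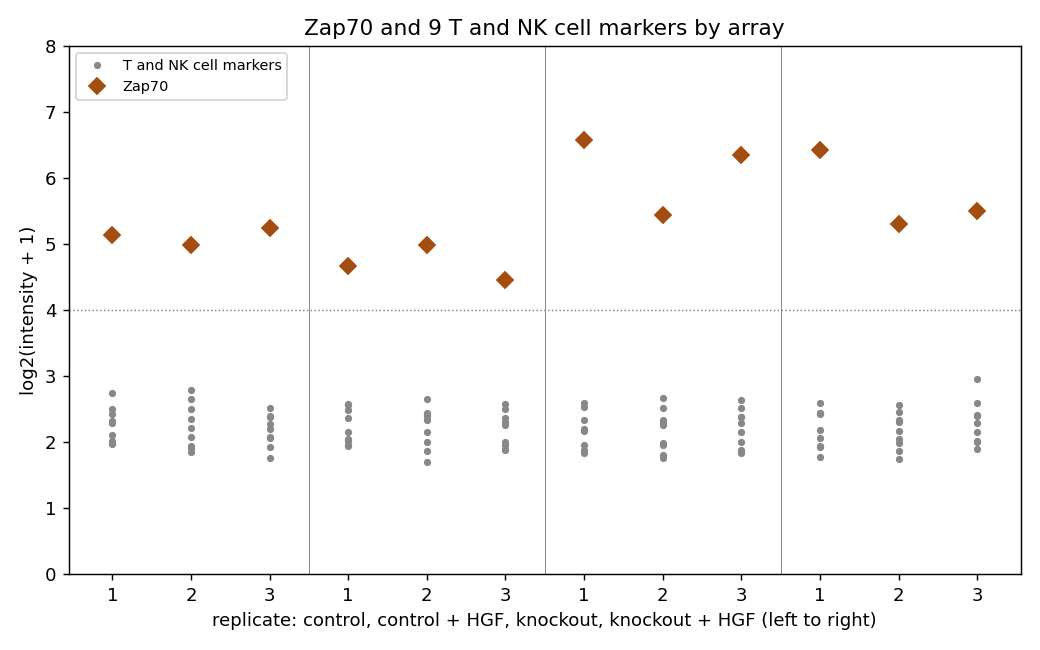
Level, log2(intensity + 1), of Zap70 (diamonds) and of 9 T and NK cell markers (grey points) on each of the 12 arrays, with the filter level of 4 dotted. Zap70 is at 4.45 to 5.24 on control and 5.30 to 6.58 on knockout arrays, while the markers stay between 1.71 and 2.95 on every array.

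Sulf2 was at 3.95, 4.08 and 4.22 in unstimulated and 3.93, 3.76 and 4.07 in HGF-treated controls, a range of 0.46. It was at 5.57, 4.57 and 5.20 in unstimulated knockouts and at 4.60, 4.96 and 4.28 in HGF-treated ones, a range of 1.28. The lowest knockout array, HGF-treated replicate 3, was 0.07 above the highest control array. The difference was 0.86 (SE 0.17, 1.82-fold).

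Genes of heparan sulfate chains and their core proteins were also measured. Of 16 on the array 10 were tested, and limma called 0 for genotype, beside 0.015% of all tested probe sets. Of the 10, 1 had a positive difference, with a median of -0.18, beside 50.2% positive and a median of 0.00 over all tested. The core protein genes Sdc1 (-0.32, SE 0.15), Sdc2 (-0.15, SE 0.09) and Gpc4 (-0.24, SE 0.14) and the chain polymerase gene Ext1 (-0.04, SE 0.10) did not pass. The companion sulfatase gene Sulf1 was below the filter at 2.00 to 2.59 on all arrays. Markers of stellate cells and fibroblasts had a positive difference in 4 of 4 tested members (median 0.31), with 0 called. Their summed level was 10.54 to 10.81 on control and 10.75 to 11.26 on knockout arrays; Col1a1, Col1a2 and Des were below the filter. Sinusoidal endothelial markers had a positive difference in 5 of 6 (median 0.16, 0 called), at a summed 9.99 to 10.41 and 10.16 to 10.58. The exception was Lyve1 (-1.15, SE 0.51). Other lists went the other way, with 0 called. Kupffer cell and macrophage markers were positive in 1 of 6 (median -0.31), neutrophil markers in 0 of 2 (median -0.78) and hepatocyte markers in 0 of 4 (median -0.05). The part of these cells in the Sulf2 and Meg3 values was not tested.

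Cdc42ep5 was at 3.91, 3.82 and 4.04 in unstimulated and 3.71, 3.29 and 4.04 in HGF-treated controls. In knockouts it was at 4.14, 4.32 and 4.98 unstimulated and at 6.32, 4.30 and 5.70 after HGF. HGF-treated replicates 1 and 3 stood well above all other arrays, and the unstimulated knockouts came within 0.10 of the controls. The averaged difference of 1.16 (SE 0.31, 2.23-fold) was made up of 0.55 (SE 0.44) without HGF and 1.76 (SE 0.44) with it. Of 5 tested genes for CDC42 and its effectors, 2 had a positive difference and 0 were called; Cdc42 itself was at 10.17 to 10.42 on all arrays (-0.03, SE 0.06), and the nearest paralogues tested were Cdc42ep1 (0.16, SE 0.13), Cdc42ep2 (-0.15, SE 0.27) and Cdc42ep4 (0.17, SE 0.22).

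L3hypdh had the widest gap between the genotypes, 0.47, of the 9 genes. It was at 6.38, 6.11 and 6.48 in unstimulated and 5.83, 6.22 and 6.29 in HGF-treated controls, and at 5.34, 4.49 and 5.36 in unstimulated and 4.88, 5.10 and 5.09 in HGF-treated knockouts. All knockout arrays were low, with unstimulated replicate 2 the lowest. The difference was -1.18 (SE 0.16, 2.26-fold lower), rank 11 of all tested probe sets in the negative direction, with nearly the same value without HGF (-1.26) and with it (-1.09).

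Of 8 tested genes of proline and hydroxyproline metabolism, 6 had a positive difference (median 0.17) and limma called 0. Prodh, which encodes proline dehydrogenase, was one of the 50 separated probe sets in the opposite direction, at 8.65 to 9.37 on control and 9.39 to 10.01 on knockout arrays (0.62, SE 0.12, limma adjusted p = 0.143). Aldh4a1, the next enzyme of that route, differed by 0.17 (SE 0.10) and Hoga1, which acts late in hydroxyproline breakdown, by 0.26 (SE 0.14).

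Serpina11 was at 10.29, 9.46 and 10.33 in unstimulated and 10.13, 9.98 and 9.88 in HGF-treated controls. It was at 8.89, 8.95 and 8.56 in unstimulated and 8.98, 9.08 and 9.40 in HGF-treated knockouts. Unstimulated control replicate 2 was the low array of the controls and came within 0.06 of the highest knockout array. The difference was -1.04 (SE 0.16, 2.05-fold lower).

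Serpina11 lies in a cluster of clade A serpins. The nearest tested genes in RefSeq order were the alpha-1-antitrypsin gene Serpina1c (0.06, SE 0.07) on one side and Serpina12, which encodes vaspin (-0.01, SE 0.29), on the other. Of 7 tested clade A serpins 2 had a positive difference, the median was -0.04 and 0 were called. Serpina6, the gene of corticosteroid-binding globulin, differed by 0.40 (SE 0.18) and the acute phase gene Serpina3n by -0.27 (SE 0.50). Whether the probes tell these related genes apart was not tested.

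Csad was at 11.30, 10.99 and 11.43 in unstimulated and 11.36, 10.87 and 11.01 in HGF-treated controls. It was at 10.37, 10.47 and 9.71 in unstimulated knockouts and at 10.06, 10.86 and 10.62 in HGF-treated ones. HGF-treated knockout replicate 2 came within 0.01 of HGF-treated control replicate 2, and once each array was centred on its median the gap was -0.04, an overlap. The difference was -0.81 (SE 0.18, 1.76-fold lower). Of 11 tested genes of taurine and cysteine metabolism, 6 had a positive difference (median 0.00) and 0 were called. Cdo1, the cysteine dioxygenase that acts just before Csad, differed by 0.00 (SE 0.08), the taurine transporter gene Slc6a6 by 0.03 (SE 0.12) and Baat, which joins taurine to bile acids, by 0.01 (SE 0.13).

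Asb13 was at 7.25, 7.40 and 7.73 in unstimulated and 7.51, 7.11 and 7.19 in HGF-treated controls. It was at 6.26, 6.92 and 6.41 in unstimulated and 6.89, 6.54 and 6.95 in HGF-treated knockouts. All 6 knockout arrays were below the 6 control arrays, with a gap of 0.16. The difference was -0.70 (SE 0.14, 1.63-fold lower). Of 13 genes of the same ligase family on the array 4 were tested and 0 called: Asb8 (-0.25, SE 0.07, limma adjusted p = 0.253), the scaffold gene Cul5 (-0.08, SE 0.20), the RING gene Rnf7 (-0.06, SE 0.11) and the adaptor gene Eloc (0.04, SE 0.11).

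Nup93 had the smallest difference of the 9 and the lowest signal among those that were lower. It was at 4.31, 4.40 and 4.11 in unstimulated and 3.72, 4.04 and 3.72 in HGF-treated controls. All 6 knockout arrays were under the filter level, at 3.46, 3.47 and 3.42 unstimulated and 3.69, 3.57 and 3.37 after HGF. The HGF-treated controls thus lay between the unstimulated controls and the knockouts, 0.03 above the highest knockout array. The difference was -0.56 (SE 0.09, 1.47-fold lower), of which -0.83 without HGF and -0.28 with it. Of 16 tested nuclear pore genes 8 had a positive difference (median -0.02) and 0 were called, among them the inner ring gene Nup155 (0.08, SE 0.15) and the abundant Sec13 (-0.09, SE 0.06) and Nup88 (0.10, SE 0.11); Nup188 and Nup205, which also build the inner ring, were below the filter.

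**Figure D3:**
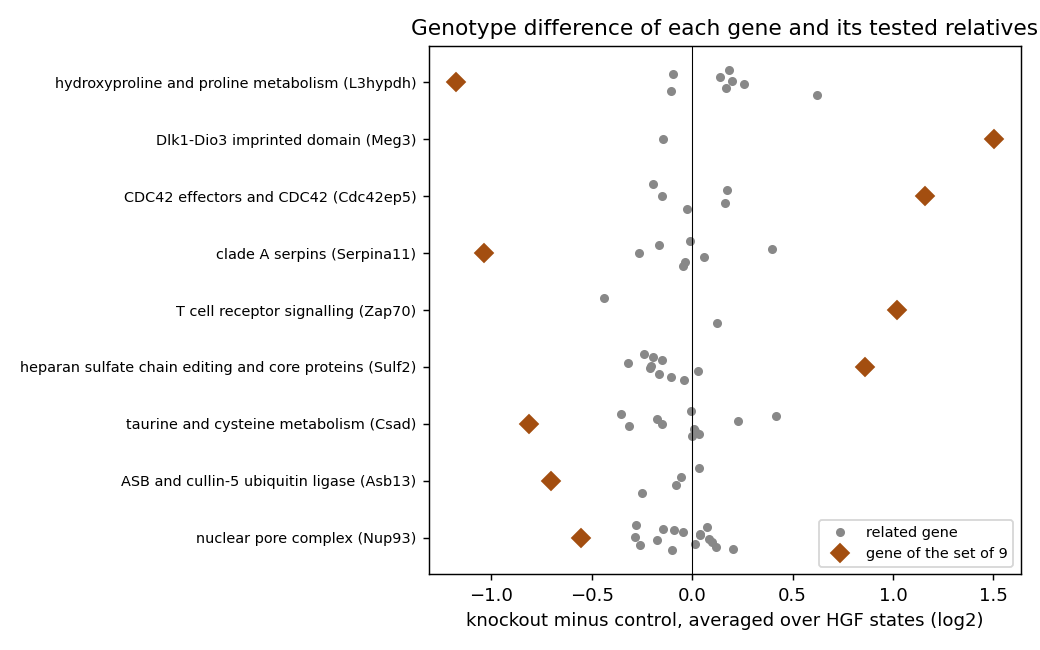
Knockout minus control difference, averaged over both HGF states (log2, zero line drawn), of each of the 9 genes (diamonds) and of the tested genes of its pathway or family (grey points, 64 in all). The diamonds lie at -1.18 to 1.50, as chosen, and outside the grey points of their own rows, which run from -0.44 for Ptprc to 0.62 for Prodh.

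Over the 9 families together, 64 related genes were tested, 27 had a positive genotype difference, the median was -0.04, and limma called 0. Of all tested probe sets limma called 0.015% for this contrast, 1 probe set. Of the 64, 1 (Prodh) was separated by array, beside 0.748% of all tested. The related genes were listed with earlier results of these data known, and the 0 calls do not show that their levels were equal between genotypes.

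Over all tested probe sets, limma called 0.0599% for genotype without HGF (0.0299% higher and 0.0299% lower) and 0.015% with HGF. The sign of the genotype difference in each HGF state is fixed by the choice of genes. Its size was larger without HGF in 7 of them and larger with HGF in Cdc42ep5 and Zap70, the latter by little (1.00 and 1.04). Without both replicate 2 arrays of the knockouts the averaged difference was 1.76 for Meg3, 1.48 for Cdc42ep5, 0.91 for Sulf2, -1.05 for L3hypdh and Serpina11 alike, -0.97 for Csad, -0.74 for Asb13 and -0.57 for Nup93. A pseudocount of 16 in place of 1 brought the values of the 4 genes near background to 0.76 for Meg3, 0.71 for Cdc42ep5, 0.52 for Sulf2 and -0.27 for Nup93. The SD was larger over the 6 knockout than over the 6 control arrays in 7 of the 9 genes. Over all tested probe sets this share was 55.5%. These SDs come from the values that chose the genes, so nothing is read from the count. The largest knockout SDs were those of Cdc42ep5 (0.88) and Meg3 (0.71), against 0.28 and 0.26 in controls, where both lay near background. Sulf2 also lay near background in controls (SD 0.16, against 0.47 in knockouts).

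**Figure D4:**
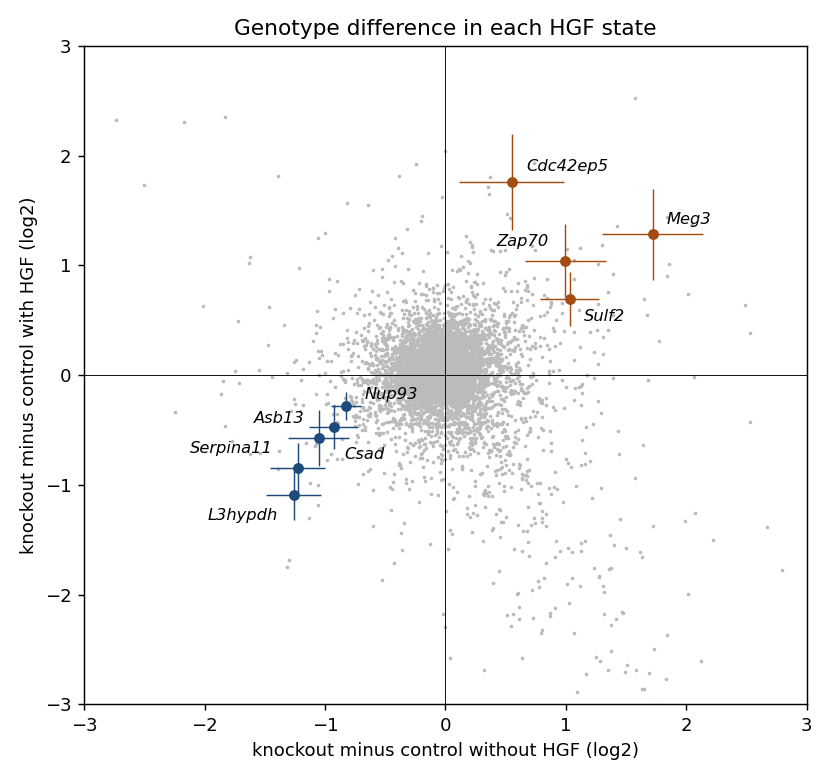
Knockout minus control difference (log2) without HGF on the horizontal and with HGF on the vertical axis, for the 9 genes (colored points, bars are 1 SE) and all tested probe sets (grey; 28 lie outside the limits of 3 in either direction). By the way they were chosen the 9 genes can only fall in the lower left and upper right; they run from -1.26 and -1.09 for L3hypdh to 1.72 and 1.28 for Meg3.

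The HGF comparison was not itself the rule for choosing the genes. The rule did need knockout arrays of both HGF states to lie on one side of all controls, which works against a large HGF shift. The shares given below for HGF and the interaction are therefore no independent test of these genes. Limma called 0 of the 9 for HGF in either genotype. In control livers all 9 values were lower with HGF, with a median of -0.19. The sign of Meg3 (-0.01, all control arrays under the filter) turned with a pseudocount of 16, with array weights and with the 2 arrays whose number carries a letter left out, and that of Serpina11 (-0.03) turned in 3 of the fits that left out 1 array. These values stand beside 35.6% higher and a median of -0.09 over all tested probe sets. Limma called 0.404% of probe sets there, 27 in number. The adjusted p of the 9 ran from 0.117 for Nup93 to 0.990 for Meg3, and at an unadjusted p under 0.05 there was 1 of the 9, beside 19.6% of all tested.

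Nup93 came closest, with a difference of -0.45 (SE 0.13, 95% interval -0.73 to -0.16, limma adjusted p = 0.117). Its 3 HGF-treated control arrays (3.72 to 4.04) lay below the 3 unstimulated ones (4.11 to 4.40). Of the HGF-treated controls only replicate 2 reached the filter level of 4. Nup93 passed the filter through that array and the 3 unstimulated controls. It was thus tested largely because of the group that is high in this comparison, and these values are no independent support. With array weights, a fit that stopped before full convergence, the value was -0.45 at an adjusted p of 0.0184 by limma; over the other fits run the adjusted p was 0.0798 to 0.313. The next largest values in controls were those of Zap70 (-0.42, interval -1.16 to 0.32) and Cdc42ep5 (-0.25, interval -1.22 to 0.72). For Serpina11 (-0.03, interval -0.53 to 0.47) and Csad (-0.15, interval -0.72 to 0.41), whose transcripts were measured far above background, the intervals stayed within 1 log2 unit of 0.

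In knockout livers the HGF differences were of both signs, 4 of 9 negative, with a median of 0.09. Limma called 0% of all probe sets, each of the 9 had an adjusted p of 1, and none of the 9 had an unadjusted p under 0.05, beside 1.9% of all tested. The largest were Cdc42ep5 (0.96, SE 0.44, interval -0.01 to 1.93) and Sulf2 (-0.50, SE 0.24, interval -1.04 to 0.04). Without both replicate 2 arrays, limma called both, Cdc42ep5 at 1.45 (SE 0.33, adjusted p = 0.0468) and Sulf2 at -0.94 (SE 0.18, adjusted p = 0.0283), where the other fits gave 0.154 to 1 for both, in a fit that compares 2 knockout arrays with 2 and called 278 probe sets in all. The other 7 genes then lay between -0.50 for Zap70 and 0.58 for Asb13, with L3hypdh at -0.36 and Meg3 at -0.18, and were not called. These 2 arrays were left out because they ran opposite to their HGF labels, which favours a larger HGF difference.

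The interaction, the HGF difference in knockouts minus that in controls, was called by limma for 0 of the 9 genes and 0% of all probe sets. Of the 9, 1 had an unadjusted p under 0.05, beside 10.8% of all tested. It was largest for Cdc42ep5 (1.21, SE 0.62, adjusted p = 0.510) and next for Nup93 (0.54, SE 0.18, adjusted p = 0.377). Nup93 was near background in all knockouts, where a lower level is compressed. For the other 7 genes the values lay between -0.44 for Meg3 and 0.48 for Csad, with adjusted p of 0.614 to 0.985 by limma. Without both knockout replicate 2 arrays the interaction was 1.70 for Cdc42ep5 (limma adjusted p = 0.155), -0.78 for Sulf2 (0.216) and 0.78 for Asb13 (0.225), and none of the 9 was called. With array weights Asb13 stood at 0.80 (limma adjusted p = 0.0674), and over all fits its adjusted p ran from 0.0674 to 0.830.

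**Figure D5:**
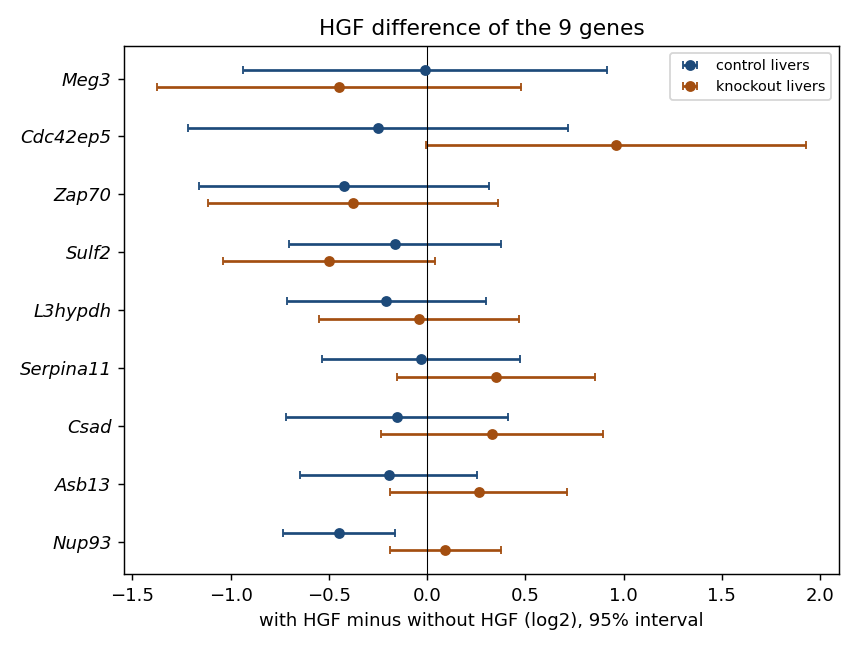
Difference with HGF minus without HGF (log2, points) and its 95% interval (bars) for the 9 genes in control and knockout livers, from the limma fit over 12 arrays. In controls the intervals cross 0 for 8 genes, all but Nup93 (-0.73 to -0.16); in knockouts they cross 0 for all 9.

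Gene by gene, the levels most like each of the 9 over the 12 arrays were compared by Pearson's r, as a description; the arrays share the genotype step, which moves r up between genes separated in the same direction and down between genes separated in opposite directions. Meg3 and Zap70 had 2 of their 3 closest genes in common: Oat, which encodes ornithine aminotransferase, a mitochondrial enzyme (r = 0.943 with Meg3 and 0.917 with Zap70), and Lhpp (r = 0.946 and 0.907). Next for Meg3 was Glul, the glutamine synthetase gene of hepatocytes around the central vein (r = 0.897), which is itself separated by genotype. Meg3 and Zap70 had an r of 0.859 with each other. Sulf2 was closest to Hpd (r = 0.954), an enzyme gene of tyrosine breakdown, and to Dym (r = 0.930), both separated and higher in knockouts. Serpina11 and Csad were each other's closest gene (r = 0.905). L3hypdh was closest to Ccm2 (r = 0.883), Asb13 to Mocs3 (r = 0.936), Nup93 to the complement gene C8a (r = 0.918) and Cdc42ep5 to Gmfg-ps (r = 0.820).

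Correlations were also taken after the mean of each of the 4 groups was removed, which takes out the genotype step. Meg3 and Cdc42ep5 then had an r of 0.858, Serpina11 and Csad 0.646 and Meg3 and Zap70 0.606, while L3hypdh and Asb13 had -0.654 and Meg3 and Sulf2 0.03. Within groups the closest genes were different ones, such as Cipc for Cdc42ep5 (r = 0.940), Gstz1 for L3hypdh (r = 0.954) and Selenoo for Sulf2 (r = 0.988). These values rest on 12 arrays with 8 degrees of freedom and on the wide spread of the knockout arrays.

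Genes next to the 9 on the chromosome were compared as well. Of 86 tested neighbours, up to 5 on each side of each gene in RefSeq order, 0 were separated by genotype and limma called 0. Over all tested probe sets these shares were 0.748% and 0.015%, so the 0 of 86 is not read as a result. The median size of the neighbours' genotype difference was 0.15, against 0.12 over all tested probe sets. The largest were Mt2 (1.38, SE 1.29) and Mt1 (1.28, SE 0.88) beside Nup93, metallothionein genes with wide errors, then Serpina4-ps1 beside Serpina11 (-1.02, SE 0.70) and Dhrs7 beside L3hypdh (0.98, SE 0.26, limma adjusted p = 0.247), which had the opposite sign to L3hypdh. Next to Asb13, Akr1c19 differed by 0.67 (SE 0.16, adjusted p = 0.193 by limma) and Net1 by -0.60 (SE 0.27). The tested neighbours of Meg3, Wars (-0.15, SE 0.15) and Ppp2r5c (-0.07, SE 0.06), differed little, and of the imprinted domain itself Dlk1 and Mirg were near background, at 1.82 to 2.38 and 1.70 to 2.50.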

How the data were processed

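Total RNA of mouse liver was labelled with biotin and hybridised to Affymetrix arrays, per the labels' protocols. The authors deposited linear intensities, 1 per probe set and array, and the submitters' processing notes name GCRMA, a background correction by probe sequence followed by normalization across arrays. No version of it is stated. Such normalization hides a change shared by most genes, and signals near background are compressed. The table holds 16539 probe sets, 64 of them array controls, named by the platform annotation. Chromosomal order came from the RefSeq gene table of GRCm38.p6, in which 6642 of the 6683 tested probe sets had a place.

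The deposited intensities were transformed as log2(intensity + 1), and probe sets at 4 or more on 3 or more arrays were kept. Limma 3.58.1 in R 4.3.3 fitted a mean for each of the 4 groups (8 residual degrees of freedom) over all tested probe sets, with a two-sided Benjamini-Hochberg adjusted p under 0.05 as a call. The fit was tested on simulated data. Precision is limited by having 3 arrays in each group; the median SE of an HGF difference was 0.18. Groups and replicate numbers came from the sample titles.

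The members, the related gene lists and the cell type markers were chosen with earlier results of these data known. Named besides the members were Met, the 3 genes most like each member in level or in deviation from group means, the nearest tested neighbours, related genes separated by genotype and the most abundant related genes; other related genes and neighbours were named after their values were seen.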

Additional observations from a re-analysis of the deposited data

How the results depend on the processing

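With array weights 1 of the 9 genes was called for HGF in controls, and 2 were called in knockouts without both knockout replicate 2 arrays; no other setting called any of the 9. Over all probe sets, the 27 called for HGF in controls became 801 with the 2 control groups alone, 1353 with array weights, 545 without both knockout replicate 2 arrays, 41 with a pseudocount of 16, 13 with no filter, 0 without the arrays whose number carries a letter, and 0 to 317 with 1 array left out. The lowest, 0, came without any of unstimulated control replicates 1 to 3 or HGF-treated control replicates 2 and 3, and 3 without HGF-treated control replicate 1; without unstimulated knockout replicate 2 it was 317, and without HGF-treated knockout replicates 2 or 3 it was 58 or 121. In knockouts the 0 calls became 278 without both replicate 2 arrays. The 0 interaction calls became 268 with array weights, 24 without both replicate 2 arrays and 0 to 1 with 1 array left out. A replicate block, by number or within genotype, called 0 for HGF in controls. Deviations of same-numbered arrays correlated at 0.05 to 0.18 in controls and at 0.12, -0.83 and -0.70 in knockouts. On the axis from unstimulated to HGF-treated controls, knockout replicate 2 stood at 0.98 unstimulated and 0.02 after HGF, opposite to its HGF labels. Knockout replicate 3 stood at 0.04 and 0.94. The correlations therefore do not settle whether replicate numbers pair the samples.

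The HGF and interaction differences of the 9 genes had the opposite sign in 24 of 573 refits, and none of the 24 was called. For HGF in controls these were Meg3 at 0.0022 with a pseudocount of 16, 0.0579 with array weights and 0.20 without the lettered arrays. With 1 array left out, Meg3 ran from -0.17 to 0.20 and Serpina11 from -0.32 to 0.12. In knockouts they were Meg3 at 0.33 and Csad at -0.0766 with array weights, and L3hypdh at 0.11 without the lettered arrays and -0.33 to 0.11 with 1 array left out. For the interaction they were L3hypdh at -0.25 and Meg3 at 0.27 with array weights, L3hypdh at -0.16 and Zap70 at -0.0767 without both replicate 2 arrays and Zap70 at -0.022 with a pseudocount of 16. With 1 array left out, L3hypdh ran from -0.12 to 0.31 and Zap70 from -0.30 to 0.28. The cause was not tested. The genotype differences kept their sign in all settings run. With arrays left out or another pseudocount, the choice of genes fixes that sign. Leaving out arrays cannot end a separation, and after centring 8 of the 9 genes remained apart, all but Csad. A filter of 6 left out Meg3, Cdc42ep5, Sulf2 and Nup93; the fit on the contrast's own groups does not apply to the interaction.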

Other observations

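Of the 9 genes, 3 (L3hypdh, Serpina11 and Meg3) lie on chromosome 12, as does Rad51b (genotype difference 3.51). With Ifi27 (-0.59), 5 of 233 tested probe sets on chromosome 12 were separated by genotype, 2.15%, beside 0.748% over all tested. On the other chromosomes that hold one of the 9 genes the shares were 1.32% on 1, 1.41% on 2, 0.426% on 7, 0.278% on 8, 0.42% on 13 and 0.38% on 15. Of the chromosomes that hold none, 5 stood at 1.44% (6 of 417 separated), X at 1.18% and 9 at 1.05%, and the rest at 0.898% or less. The 5 genes on chromosome 12 were of both signs, 2 higher and 3 lower in knockouts. No tested neighbour of L3hypdh, Serpina11 or Meg3 was separated, which says little beside the 0.748% over all tested. The 9 genes were chosen from the separated genes, so these shares are a description.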
